A study of Mus musculus with 3 samples.

Results

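The transcripts described here are those of 47 genes that act in the G2 phase of the cell cycle and in mitosis, of 31053 genes in the deposited count matrices. They were taken by symbol from a list of cyclins, mitotic kinases, kinetochore, spindle and cytokinesis genes, and all 47 symbols were found. Their levels were read in single-cell RNA sequencing libraries of mouse cochlear organoids, which are three-dimensional cultures grown from C57BL/6 cochlear progenitor cells marked by the Wnt co-receptor Lgr5. The later group was organoids on day 25 of differentiation, the middle group organoids on day 5 of differentiation, and the starting group organoids in expansion at passage 2, day 8. Expansion medium contained CHIR99021, LPA and Y-27632 with the growth factors IGF, EGF and bFGF, on a DMEM/F-12 base with GlutaMAX, penicillin/streptomycin, B27 and N2. All 3 groups had passed through that medium. Differentiation medium contained A83-01, RA, Shh, BDNF and bFGF, with LY4115775 for the first 5 days only, so day 25 organoids had received LY4115775 early and then none. Cells were dissociated with trypsin and sorted for single living cells, and the number of animals or cultures behind a library is not given in the sources used here. Each group was 1 library, so group and library cannot be told apart and no test between groups was possible.

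At the entry to mitosis, the kinase CDK1 is switched on by its B-type cyclins. Kinetochores then tie chromosomes to the spindle, the spindle checkpoint holds back the ubiquitin ligase APC/C until attachment is complete, and a central spindle and contractile ring divide the cell. Most genes for these steps are transcribed in G2 and mitosis only, through the DREAM complex, MYBL2 and FOXM1, and their transcripts are scarce in cells that have left the cycle. In the mammalian cochlea, hair cells and supporting cells become postmitotic before birth, and Lgr5-expressing supporting cells of the neonate can be made to divide again in culture.

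Levels are given as CPM, the UMIs (unique molecular identifiers, 1 per captured transcript) of a gene per 1000000 UMIs of all kept cells of a library or class. UMIs were read from the 3′ end and are not divided by gene length. Kept cells, with at least 500 genes and at most 20% mitochondrial UMIs, numbered 27996 (expansion), 13850 (day 5) and 6264 (day 25), and their medians were 4935.5, 5962.5 and 8585 UMIs. Between 21 and 121 cell barcodes were shared by any pair of libraries. The 6 listed supporting cell and progenitor markers, Lgr5 and Sox2 among them, summed to 129.8 CPM in expansion, 53.4 CPM on day 5 and 82.4 CPM on day 25, and the 10 hair cell markers to 68.5, 394 and 1885 CPM at the same times. Calls needed CPM + 1 to differ at least 2-fold, in a gene that reached 20 CPM in either library. Intervals are exact 95% Poisson or Clopper-Pearson intervals and cover counting error only, not the spread between cultures.

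The mitotic genes were lower on both differentiation days than in expansion, across every role. On day 5, 40 of the 47 genes passed the level filter and all 40 were called lower, against a background of 7.81% of 6416 genes called lower and 15.3% called higher in that comparison. On day 25 the same number passed and all 40 were called lower, against 9.12% of 7283 genes lower and 33.5% higher. All but Hmgb2 and Cks2 on day 5, and all but Hmgb2 on day 25, passed through expansion alone and so had to differ, which leaves little to read from the count itself. The median log2 difference of all 47 genes was -4.08 on day 5 and -4.24 on day 25, whereas the median of all genes that passed was 0.19 and 0.51. Summed over the 47 genes, the level was 3907 CPM in expansion, 252 CPM on day 5 and 180.1 CPM on day 25. The sum was thus 15.5-fold lower on day 5 than in expansion (95% interval 15.3 to 15.7) and 21.7-fold lower on day 25 (21.3 to 22.1). In these bulk sums, fewer dividing cells and less RNA per dividing cell cannot be told apart. TMM scaling moved the median of all genes to -0.18 on day 5 and -0.22 on day 25 and turned the calls over all genes from 979 higher and 501 lower to 627 and 940 on day 5, and from 2437 and 664 to 1203 and 1666 on day 25. The members stayed lower under that scaling, with 43 passing and 43 lower on each day.

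**Figure D1:**
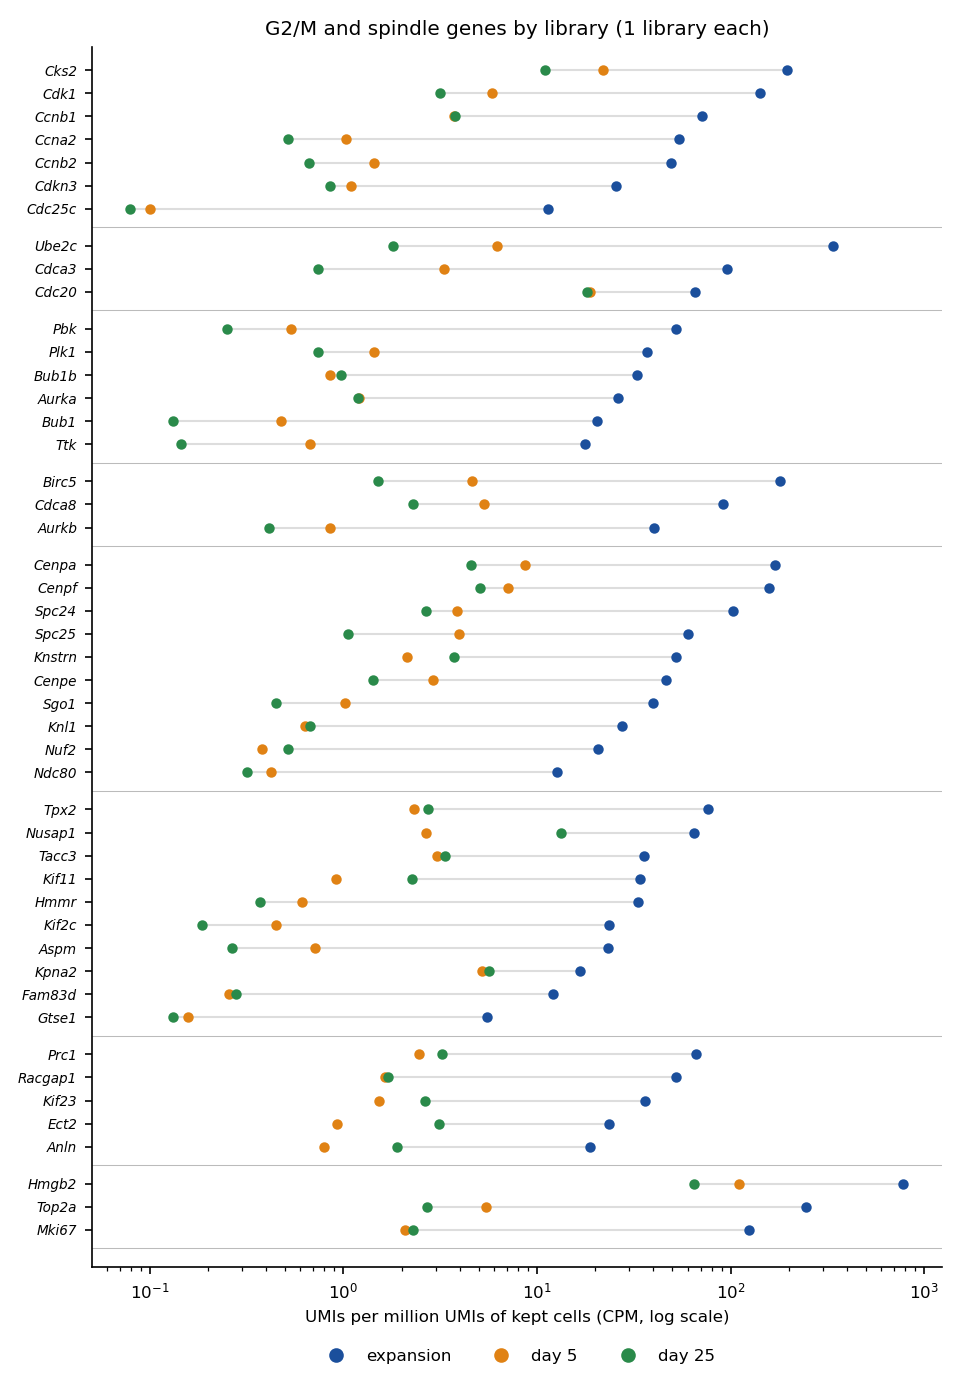
Level of each of the 47 genes in the 3 libraries, as CPM on a log axis; each point is 1 library and lines separate the role groups. Every gene was highest in expansion, and Hmgb2 at 109.9 and 65.1 CPM stayed far above the others on days 5 and 25.

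The CDK1 and cyclin group holds 7 genes, of which 6 passed the filter and were lower on both days. Cks2, a small subunit that binds CDK1, had 195 CPM in expansion, 22.0 CPM on day 5 and 11.0 CPM on day 25. Cdk1, the mitotic kinase at chr10:69335146-69352938, had 142.5 CPM in expansion, 5.85 CPM on day 5 and 3.15 CPM on day 25. Ccnb1, which encodes cyclin B1, had 71.6 CPM in expansion and stayed at 3.73 and 3.77 CPM on days 5 and 25. Cks2 was thus 8.86-fold lower on day 5 than in expansion (8.54 to 9.19), a smaller difference than the 24.4-fold of Cdk1 (22.7 to 26.1). Cdc25c, the phosphatase that activates CDK1, did not reach the filter, with 11.4 CPM in expansion and 0.10 and 0.080 CPM on the later days. The other cyclin genes, Ccna2 and Ccnb2, and the CDK-binding phosphatase gene Cdkn3 were between 23.3-fold and 52.4-fold lower on day 5. The 14 UMIs of Cdc25c on day 5 and 6 UMIs on day 25 were the fewest of any gene in the list on those days.

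The 3 genes of the ubiquitin group were lower on both days by very different amounts. Ube2c, the ubiquitin-conjugating enzyme of the APC/C at chr2:164769898-164778822, had 337 CPM in expansion, 6.26 CPM on day 5 and 1.81 CPM on day 25. It was 53.8-fold lower on day 5 (50.3 to 57.6) and 187-fold lower on day 25 (158 to 222) than in expansion. Cdca3, which helps degrade the mitotic brake kinase WEE1, had 95.9 CPM in expansion, 3.30 CPM on day 5 and 0.744 CPM on day 25. Cdc20, the activating subunit of the APC/C at chr4:118432901-118437352, had 65.8 CPM in expansion, 18.9 CPM on day 5 and 18.1 CPM on day 25. Cdc20 was therefore only 3.49-fold lower on day 5 (3.34 to 3.64) and 3.64-fold lower on day 25 (3.44 to 3.85). Cdc20 overlaps Elovl1, and Ube2c overlaps Tnnc2, on the opposite strand. The setting for strand in the authors' counting is not given in the sources used here. Whether reads of the overlapping genes entered the counts of Cdc20 and Ube2c was not tested.

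Of the 6 mitotic kinases and checkpoint genes, 5 passed and were lower on both days. Pbk, a mitotic kinase, had 52.1 CPM in expansion, 0.536 CPM on day 5 and 0.252 CPM on day 25, and its 206-fold lower level on day 25 (132 to 343) was the largest ratio of CPM in the list. Plk1, the polo kinase that drives mitotic entry and spindle assembly, had 37.2 CPM in expansion, 1.44 CPM on day 5 and 0.744 CPM on day 25. The checkpoint kinase gene Ttk did not reach the filter, with 17.8 CPM in expansion and 0.672 and 0.146 CPM on days 5 and 25. The remaining genes, Aurka, Bub1 and Bub1b, were between 21.6-fold and 42.6-fold lower on day 5 than in expansion.

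The 3 listed genes of the chromosomal passenger complex, which corrects faulty attachments and later guides cytokinesis, were all lower on both days. Birc5, which encodes survivin, had 179.9 CPM in expansion, 4.61 CPM on day 5 and 1.51 CPM on day 25. Cdca8, which encodes borealin, had 90.9 CPM in expansion, 5.34 CPM on day 5 and 2.28 CPM on day 25. Among the 10 kinetochore and centromere genes, 9 passed and were lower on both days. Cenpa, the histone H3 variant of centromeres, had 169 CPM in expansion, 8.65 CPM on day 5 and 4.54 CPM on day 25. Cenpf, a large outer kinetochore protein, had 157.6 CPM in expansion, 7.09 CPM on day 5 and 5.11 CPM on day 25. Spc24, a subunit of the NDC80 complex that grips microtubules, had 103 CPM in expansion, 3.88 CPM on day 5 and 2.68 CPM on day 25. Over the whole group, Cenpe, Knl1, Nuf2, Spc25, Sgo1 and Knstrn included, levels were between 15.2-fold and 54.7-fold lower on day 5 than in expansion. Ndc80 itself did not reach the filter, with 12.6 CPM in expansion and 0.422 and 0.319 CPM later.

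The spindle group holds 10 genes, of which 7 passed and were lower on both days. Tpx2, which activates Aurora A and nucleates microtubules, had 76.9 CPM in expansion, 2.33 CPM on day 5 and 2.74 CPM on day 25. Nusap1, a spindle microtubule-bundling protein at chr2:119618298-119651244, had 64.7 CPM in expansion, 2.68 CPM on day 5 and 13.4 CPM on day 25. On day 25 Nusap1 was 4.84-fold lower than in expansion (4.54 to 5.16), against 24.2-fold on day 5 (21.8 to 26.9). Aspm, Hmmr, Kif2c, Kif11 and Tacc3, the others that passed, were between 11.7-fold and 54.0-fold lower on day 5. The last 3 spindle genes missed the filter. Fam83d, which carries casein kinase to the spindle, had 12.1, 0.257 and 0.279 CPM in expansion and on days 5 and 25. Gtse1, a microtubule-binding protein of G2, had 5.56, 0.157 and 0.133 CPM at these times. Kpna2, an importin alpha that ferries cargo into interphase nuclei as well as serving the spindle, had 16.7, 5.19 and 5.64 CPM and so only a 3.21-fold lower level on day 5 than in expansion (2.97 to 3.49).

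Of the 5 cytokinesis genes, 4 passed and were lower on both days. Prc1, which bundles the central spindle, had 66.2 CPM in expansion, 2.45 CPM on day 5 and 3.24 CPM on day 25. Racgap1, a subunit of centralspindlin, had 52.0 CPM in expansion, 1.64 CPM on day 5 and 1.70 CPM on day 25. Anln, an actin-binding protein of the contractile ring, missed the filter with 18.8, 0.794 and 1.89 CPM in expansion and on days 5 and 25. All 5 genes of the group, with Kif23 and Ect2, had a ratio above 1 for day 25 against day 5, from 1.04 to 3.36. None of them reached 20 CPM on either day, and the interval of Racgap1, 0.829 to 1.29, included 1. Over all genes that passed the filter in that comparison, the median log2 difference was also positive, at 0.31. The count is therefore no result about the group. The last group holds genes of chromosome structure. Hmgb2, an abundant chromatin protein that non-dividing cells also make, had 780.4 CPM in expansion, 109.9 CPM on day 5 and 65.1 CPM on day 25. Top2a, the topoisomerase that untangles sister chromatids, had 245 CPM in expansion, 5.44 CPM on day 5 and 2.70 CPM on day 25. Mki67, which coats mitotic chromosomes and is the gene of the Ki-67 proliferation antigen, had 124 CPM in expansion, 2.09 CPM on day 5 and 2.30 CPM on day 25.

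Promoter sequences were set beside these values because the genes were lower together. The RefSeq promoter windows (build GRCm38.p6, 250 bases before to 50 bases after the start) held 41 of the 47 genes, and the windows were searched on both strands for CCAAT, the letters bound by NF-Y, and for TTTGAA, the core of the cell cycle genes homology region (CHR) bound by DREAM. CCAATTGG counts as a copy on each strand, and in the Cdca8 window a CCAAT copy and the TTTGAA copy share a letter. TTTGAA was in 30 of the 41 windows, or 73.2%, against 18.1% of 27025 windows of the same length over all genes. CCAAT was in 32, or 78.0%, against 37.9% of all windows, and both were in 26, or 63.4%, against 7.12%. In 27 of the 30 windows with TTTGAA the nearest copy was within 50 bases of the start, and in the windows with both the median distance from it to the nearest CCAAT was 25 bases. Neither was found in 5 windows, or 12.2%, against 51.1% of all windows. These 5 belonged to Nuf2, Knstrn, Nusap1, Tacc3 and Birc5. A match is a string of letters only, and no binding was measured.

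The windows of 4 genes are shown, chosen after their values were seen: Ube2c for its large difference between expansion and the later days, and Cdc20, Cdca3 and Nusap1 for their differences between classes of cells on day 5, day 25 or both. Each is printed 5′ to 3′ in the direction of transcription, and capitals mark CCAAT or TTTGAA on either strand. The Ube2c window is chr2:164769679-164769978 on the plus strand, Cdc20 chr4:118437294-118437593 on the minus strand, Cdca3 chr6:124829926-124830225 on the plus strand and Nusap1 chr2:119618048-119618347 on the plus strand. Ube2c held 6 CCAAT copies and 1 TTTGAA, Cdc20 2 and 1, Cdca3 3 and 1, and Nusap1 none of either, so that its window has no capitals.
Ube2c promoter: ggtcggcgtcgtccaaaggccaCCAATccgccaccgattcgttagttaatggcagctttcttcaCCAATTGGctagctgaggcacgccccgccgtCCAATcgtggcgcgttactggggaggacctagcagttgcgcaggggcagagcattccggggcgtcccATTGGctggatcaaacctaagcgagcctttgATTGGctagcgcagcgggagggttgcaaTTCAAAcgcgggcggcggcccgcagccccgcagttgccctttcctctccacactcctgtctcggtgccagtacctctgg
Cdc20 promoter: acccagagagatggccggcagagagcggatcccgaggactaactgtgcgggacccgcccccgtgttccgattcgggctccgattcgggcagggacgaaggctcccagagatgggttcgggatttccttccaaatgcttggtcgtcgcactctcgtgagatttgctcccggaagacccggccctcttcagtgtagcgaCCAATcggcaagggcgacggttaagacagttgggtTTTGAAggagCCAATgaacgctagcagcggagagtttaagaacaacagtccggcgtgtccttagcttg
Cdca3 promoter: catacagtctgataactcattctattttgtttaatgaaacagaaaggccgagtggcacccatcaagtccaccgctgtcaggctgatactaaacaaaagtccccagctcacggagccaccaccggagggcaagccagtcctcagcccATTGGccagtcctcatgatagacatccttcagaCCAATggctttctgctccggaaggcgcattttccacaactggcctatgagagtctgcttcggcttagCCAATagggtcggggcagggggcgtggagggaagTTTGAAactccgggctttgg
Nusap1 promoter: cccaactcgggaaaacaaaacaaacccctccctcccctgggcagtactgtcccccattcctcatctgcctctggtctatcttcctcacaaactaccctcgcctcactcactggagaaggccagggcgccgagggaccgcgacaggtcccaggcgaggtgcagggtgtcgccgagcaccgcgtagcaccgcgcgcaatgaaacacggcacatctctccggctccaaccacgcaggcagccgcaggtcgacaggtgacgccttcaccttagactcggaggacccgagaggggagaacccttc

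Between day 25 and day 5 the summed level differed far less than between either day and expansion, with a ratio of 0.715 (0.701 to 0.729). Only Hmgb2 and Cks2 reached 20 CPM on either day, and neither passed the 2-fold bound, against 21.1% of 7184 genes called higher and 5.82% called lower. With only these 2 genes open to a call, the absence of calls says little about the group. Over all 47 genes the ratio of day 25 to day 5 had a median of 0.721, with 30 genes below 1 and 17 above. Ratios ran from 0.217 for Ttk to 5.00 for Nusap1 (4.43 to 5.64). Ect2, the exchange factor that starts the contractile ring, was next at 3.36 (2.70 to 4.19), with 0.930 CPM on day 5 and 3.12 CPM on day 25. Kif11, the motor that pushes spindle poles apart, followed at 2.48 (1.96 to 3.14). Cks2 lay near the bound, with a ratio of 0.4998 in CPM (0.462 to 0.540) and a log2 difference of -0.94 after adding 1 CPM. With TMM scaling both Hmgb2 and Cks2 were called lower. What remained on both days was carried by few genes, since 37 of the 47 were under 5 CPM on day 5 and 41 on day 25. The 4 highest were Hmgb2, Cks2, Cdc20 and Cenpa on day 5, with 63.3% of all UMIs of the group, and Hmgb2, Cdc20, Nusap1 and Cks2 on day 25, with 59.7%.

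Among 22 regulators of these genes and of the cycle, 12 passed the filter on day 5 and 13 on day 25. Of these, 2 were called higher and 2 lower on day 5, and 5 higher and 2 lower on day 25, against 15.3% and 33.5% of all genes called higher and 7.81% and 9.12% called lower. Counts this near the background are no result about the regulators, and their values are given as a description. Foxm1, the forkhead activator of G2/M genes, had 14.5 CPM in expansion, 2.00 CPM on day 5 and 2.23 CPM on day 25. Mybl2, its partner on DREAM-bound promoters, had 10.1 CPM in expansion, 1.22 CPM on day 5 and 0.956 CPM on day 25. E2f1, an activator of S phase genes, had 21.9 CPM in expansion, 2.27 CPM on day 5 and 2.52 CPM on day 25, and was called lower on both days. E2f4, the E2F of the repressive DREAM complex, was level at 20.4, 21.0 and 21.4 CPM. Among the pocket protein genes, Rbl1 was also lower later, with 12.6, 2.90 and 1.81 CPM in expansion and on days 5 and 25. Rb1 and Rbl2 had the opposite order in time. Rb1 had 9.73 CPM in expansion, 19.1 CPM on day 5 and 50.1 CPM on day 25, and Rbl2, which encodes p130, had 6.73, 13.9 and 31.6 CPM at these times. Cdkn1b, the CDK inhibitor p27 that keeps supporting cells of the cochlea out of the cycle, had 38.9 CPM in expansion, 98.3 CPM on day 5 and 165.5 CPM on day 25. Cdkn1a, which encodes p21, was called higher on day 25 and not on day 5, with 129.8, 110.3 and 537 CPM. Cdkn1c, which encodes p57, was highest on day 5, with 162, 623 and 93.1 CPM in expansion and on days 5 and 25.

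Other genes of the same phase differed less. The members and this list were chosen with earlier results of these data known, so little is read from that contrast. Of 52 further G2/M genes, 34 passed the filter, 25 of them were lower on day 5 than in expansion and 23 of 34 on day 25, and none was higher. Over all genes, 7.81% and 9.12% were lower and 15.3% and 33.5% higher on those days. The median log2 difference of all 52 was -2.59 on day 5. The 4 with the largest difference on day 5 were Pimreg, Ncapg, Kif4 and Kif15, at -4.33, -4.06, -4.04 and -3.96. Ncapg is a condensin subunit and Kif4 a chromosome-bound motor. Between day 25 and day 5, 3 of 19 were higher and 1 lower, shares near the 21.1% and 5.82% of all genes, so the counts are no result about the list and the values of the 4 genes are a description. Pttg1, which encodes securin, had 32.5 CPM on day 25 against 7.56 CPM on day 5, Lbr, a nuclear envelope receptor, 33.7 against 13.96 CPM, and Anp32e, a histone chaperone, 149 against 67.8 CPM. Cks1b, the close relative of Cks2, was lower, with 49.9 CPM on day 25 against 141.9 CPM on day 5. Of 43 S phase genes, 30 of 33 that passed were lower on day 5 than in expansion and 28 of 34 on day 25, none higher, against the same 7.81% and 9.12% lower and 15.3% and 33.5% higher over all genes. In both lists most genes called lower passed through their expansion level alone, which fixed their direction, so little is read from these counts. Exceptions on day 5 in the S phase list were Rfc2, Nasp, Slbp, Tipin and Usp1. The 4 S phase genes with the largest difference on day 5 were Rrm2, Uhrf1, Mcm6 and Rad51ap1, at -4.04, -3.61, -3.46 and -3.39. Rrm2 is the small subunit of ribonucleotide reductase, and Mcm6 a subunit of the replicative helicase.

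Cells were then put in 4 exclusive classes. Pou4f3-positive cells held at least 2 UMIs of Pou4f3, the hair cell transcription factor, and numbered 169 in expansion, 374 on day 5 and 1621 on day 25. Otor-high cells, in which Otor, a secreted protein of the inner ear, made up at least 0.5% of the UMIs, numbered 262, 3500 and 192. Epcam-positive cells, with at least 1 UMI of the epithelial adhesion gene Epcam, numbered 19563, 7757 and 3950. The remaining 8002, 2219 and 501 cells had none of these features. The classes are read-outs of single genes and not cell types.

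The mitotic genes were lower on day 5 than in expansion within each of the 3 marked classes. In Pou4f3-positive cells 24 of 24 genes that passed were lower, against 8.49% of all genes there. In Otor-high cells it was 33 of 33, against 5.19%, and in Epcam-positive cells 40 of 40, against 10.2%. Nothing is read from these counts, since nearly all of the genes passed through their expansion level alone: the exceptions on day 5 were Cdca3, Cks2 and Hmgb2 in Pou4f3-positive, Cks2 and Hmgb2 in Otor-high and Cdc20 and Hmgb2 in Epcam-positive cells. Summed, the 47 genes had 2041 CPM in expansion, 207 CPM on day 5 and 191 CPM on day 25 in Pou4f3-positive cells. In Otor-high cells the sums were 2993, 326 and 536 CPM, in Epcam-positive cells 3919, 218 and 165 CPM, and in the remaining cells 3969, 451 and 183.5 CPM. On day 5 the sum was 9.85-fold lower than in expansion in Pou4f3-positive cells (9.198 to 10.6), 9.19-fold in Otor-high cells (8.79 to 9.60) and 17.95-fold in Epcam-positive cells (17.7 to 18.2). In expansion the Pou4f3-positive cells had lower levels than Epcam-positive cells, with 18 of 40 genes called lower and none higher. Of all 6239 genes that passed there, 3.43% were called lower and 630 genes higher. Only 24 of the mitotic genes reached 20 CPM in Pou4f3-positive cells of expansion. The rest of the 40 passed through Epcam-positive cells alone, which fixed their direction. The Pou4f3-positive level moved with the doublet score: with the cells of highest score left out, a setting chosen after the data were seen, the Pou4f3-positive sum in expansion was 858 CPM. With the highest-scored cells left out on both days, the Otor-high sum was 302 CPM on day 25 against 329 CPM on day 5, a ratio of 0.917 (0.830 to 1.01), where all cells gave 1.65 (1.53 to 1.77). In Pou4f3-positive cells the direction turned as well, with 192 CPM on day 25 against 182 CPM on day 5 and a ratio of 1.05 (0.965 to 1.15), where all cells gave 0.922 (0.861 to 0.988).

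**Figure D2:**
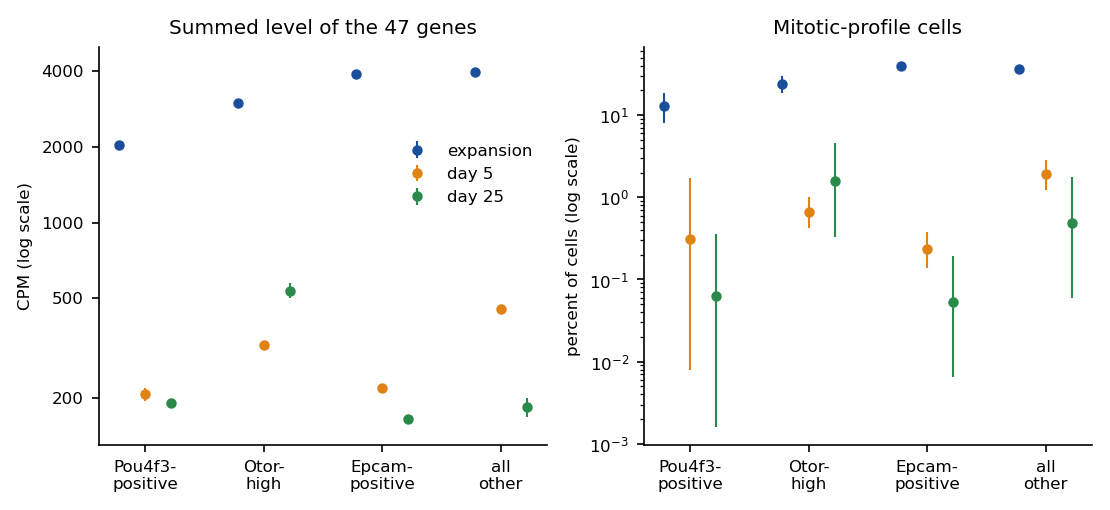
Left, CPM of the 47 genes summed, and right, percent of cells with a mitotic profile (at least 5 of 44 scored genes detected in 2000 UMIs), both on log axes, in 4 classes of cells; points are libraries and bars exact 95% intervals for counting error. Expansion lies above both later days in every class, and the Pou4f3-positive share on day 25 rests on 1 cell.

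To compare cells at equal depth, each cell was thinned to 2000 UMIs, and a mitotic profile was set at 5 or more of 44 genes detected, without Hmgb2, Cks2 and Kpna2. Left out were the cells of fewer than 2000 UMIs, which numbered 2757, 1799 and 373 in the libraries taken in that order of time. The profile was found in 9732 of 25239 cells in expansion, or 38.6% (38.0 to 39.2). On day 5 it was found in 64 of 12051 cells, or 0.531% (0.409 to 0.678), and on day 25 in 8 of 5891, or 0.136% (0.0586 to 0.267). Without thinning, the shares were 58.5%, 1.62% and 0.990% of all kept cells. In expansion the number of genes detected ran without a gap, with 3978 cells at 3 to 4 genes and 4353 at 5 to 7, so the bound there divides a range. On day 5 only 32 cells held 3 to 4 and 21 held 5 to 7, and on day 25 only 6 and 2, while 85.7% and 86.1% of cells held none. None of the 64 and 8 cells was called a doublet, but 14 and 5 were among the cells of highest doublet score, and without those the day 25 share was 0.0537%, or 3 cells.

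**Figure D3:**
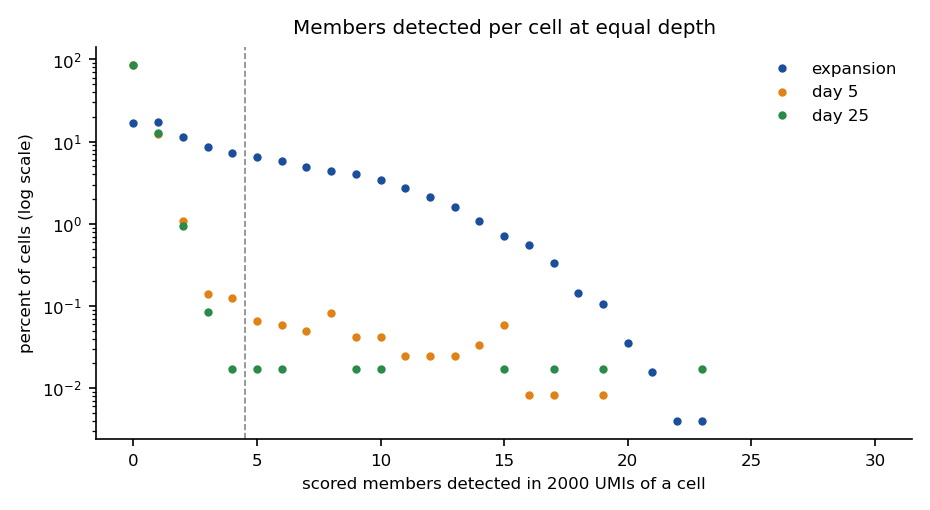
Percent of cells, on a log axis, by the number of the 44 scored genes detected in 2000 UMIs of the cell, in the 3 libraries; the dashed line is the bound between 4 and 5. Expansion fills every number up to 23 genes, whereas on days 5 and 25 most cells hold none and a thin tail reaches 19 and 23 genes.

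The share with a mitotic profile differed between classes. In expansion it was 39.9% of Epcam-positive cells, 24.1% of Otor-high cells and 12.7% of Pou4f3-positive cells (21 of 165, 8.05 to 18.8). Of those 21 cells, 16 were among the highest doublet scores, and the share without them was 4.95%. On day 5 it was 0.237% of Epcam-positive cells (17 of 7176), 0.670% of Otor-high cells (22 of 3286) and 1.90% of the remaining cells (24 of 1266). On day 25 it was 2 of 3716 Epcam-positive cells, 3 of 188 Otor-high cells and 2 of 411 remaining cells. Pou4f3-positive cells, which carry a gene of cells that do not divide, held 1 of 323 on day 5 and 1 of 1576 on day 25. The shares of Epcam-positive cells, 0.237% (0.138 to 0.379) on day 5 and 0.0538% (0.00652 to 0.194) on day 25, cannot be set apart from the 0.310% (0.00784 to 1.71) and 0.0635% (0.00161 to 0.353) of Pou4f3-positive cells, since 1 cell a day leaves that level too uncertain to serve as a background. Without the highest doublet scores the Pou4f3-positive count of day 5 was 0 of 227 and the Epcam-positive count of day 25 was 0 of 3521. Median depth before thinning was 10889 and 10118 UMIs in these Pou4f3-positive cells and 6817.5 and 9115 UMIs in these Epcam-positive cells.

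Mesenchyme markers were high in the mitotic-profile cells of day 5. Over the 64 cells, the 8 otic mesenchyme markers summed to 4549 CPM, against 2444 CPM in all other cells of day 5, and 44 of the 64 held at least 3 of these markers. Otor was detected in 57, the transcription factor gene Tbx18 in 42, Pou3f4 in 40 and the collagen gene Col3a1 in 36. Numbers of cells with a marker were read before thinning, in cells deeper than the rest, and were not made for other cells. Otor gave 4019 CPM of that sum, and Col1a1, Col1a2 and Postn were in 1 cell each. The 7 epithelial markers summed to 356 CPM, against 1358 CPM in other cells, and 10 cells held at least 3. Even among the 17 Epcam-positive cells with a mitotic profile, mesenchyme markers summed to 1826 CPM, against 332 CPM in other Epcam-positive cells, and 8 of 17 held at least 3, while 7 were among the highest doublet scores. All 5 macrophage markers and all 3 erythroid markers were at 0 in the 64 cells. Of the 5 endothelial markers, Emcn was in 46 cells while Pecam1 and Cldn5 were at 0. The part of mixed cells in these counts was not tested beyond the doublet scores given.

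In the 8 cells of day 25, mesenchyme markers summed to 3846 CPM, against 326 CPM in other cells, and epithelial markers to 2308 CPM, against 5970 CPM. Most of that mesenchyme sum was Otor, and most of its UMIs lay in the 3 Otor-high cells, a class set by Otor itself. The cell with the most scored genes was an Epcam-positive cell of 19714 UMIs with 102 Epcam UMIs, 20 Mki67 UMIs, 23 Top2a UMIs and 42 of the 44 scored genes. The other Epcam-positive cell had 27639 UMIs, 73 of Epcam and 32 scored genes, and both were among the highest doublet scores. The 3 Otor-high cells held 168, 76 and 107 Otor UMIs and 36, 35 and 35 scored genes, and their 12, 35 and 6 Ube2c UMIs were all 53 Ube2c UMIs of that class. The single Pou4f3-positive cell had 8 Pou4f3 UMIs and only 6 scored genes in 9353 UMIs, with 1 UMI of Top2a and none of Mki67 or Ube2c. The single Pou4f3-positive cell of day 5 held 27 scored genes and 5 Pou4f3 UMIs, but also 46 Otor UMIs and 2 Epcam UMIs in 18605 UMIs, and it was among the highest doublet scores.

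Genes that had no part in choosing these cells were also high in them. Hmgb2, not scored, had 1431 CPM in the 64 cells of day 5 against 103 CPM in other cells, and 1650 CPM in the 8 cells of day 25 against 62.8 CPM. In expansion it was 1178 against 443 CPM. The unscored Cks2 had 384 CPM against 20.1 CPM on day 5 and 278 against 10.6 CPM on day 25. The 43 S phase genes summed to 2752 CPM in the mitotic-profile cells of day 5 against 456 CPM in other cells, 6.04-fold higher (5.77 to 6.32), and on day 25 they were 7.46-fold higher (6.68 to 8.31). In expansion the same ratio was 1.31, with 2029 against 1551 CPM, the cells without a mitotic profile having nearly as much S phase transcript. The 52 other G2/M genes were 4.33-fold higher on day 5, 6.13-fold on day 25 and 2.16-fold in expansion. Mitotic-profile cells were deeper than the rest, with medians of 9906.5 against 6462 UMIs on day 5 and 12849.5 against 8929 UMIs on day 25.

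Only part of the late mitotic transcript came from these cells. Mitotic-profile cells held 73.2% of the group's UMIs in the expansion library, 16.4% in that of day 5 and 8.59% in that of day 25, beside 44.1%, 0.507% and 0.143% of all UMIs. Since 44 genes chose the cells, the shares of those genes describe the choice and are not tested. Some genes lay mostly in them. For Hmmr, a spindle pole protein, 77.9% of 86 UMIs on day 5 and 67.9% of 28 UMIs on day 25 were in mitotic-profile cells. For Ube2c it was 59.4% of 875 UMIs and 58.1% of 136 UMIs. Others were mostly elsewhere on both days. For Cdc20 it was 2.99% of 2640 UMIs and 1.10% of 1362 UMIs, and for the unscored Hmgb2 6.60% and 3.63%. Nusap1 had 35.3% of 374 UMIs in them on day 5 and 2.78% of 1007 UMIs on day 25.

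**Figure D4:**
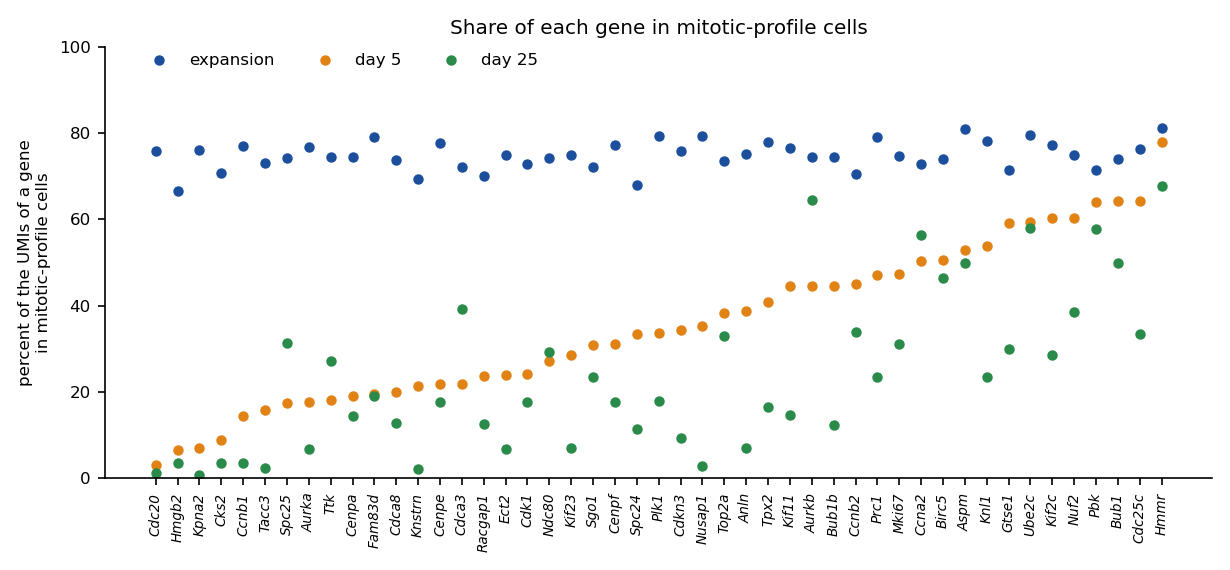
Percent of each gene's UMIs that lay in mitotic-profile cells, in the 3 libraries, with genes ordered by their day 5 value. In expansion the genes lie between 66.6% and 81.3%, and on the later days they spread from 2.99% and 1.10% for Cdc20 to 77.9% and 67.9% for Hmmr, apart from Kpna2 at 0.706% on day 25.

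A few of the genes differed widely between classes on the later days. Nusap1, Cdca3 and Cdc20 are described because of these values, which were seen first. Pou4f3-positive cells were set against Epcam-positive cells of the same library. On day 5, 4 genes passed the filter, of which Cdca3 was higher and Cdc20 and Hmgb2 were lower, against 18.3% of all genes higher and 13.8% lower. On day 25, 3 passed, of which Nusap1 was higher and Cdc20 lower, against 19.3% and 17.4%. With so few genes and such a background, the counts are not a result about the group, and only the values of the genes are given.

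Nusap1 on day 25 had 45.1 CPM in Pou4f3-positive cells against 1.49 CPM in Epcam-positive cells, 30.4-fold higher (24.0 to 38.9), and 14.1 CPM in Otor-high cells. On day 5 it had 5.40 CPM in Pou4f3-positive cells against 2.00 CPM in Epcam-positive cells, and in expansion 30.9 against 64.2 CPM. The level was spread over many cells: 512 of 1621 Pou4f3-positive cells of day 25 held a Nusap1 UMI, or 31.6% (29.3 to 33.9), and 63 of 3950 Epcam-positive cells, or 1.59%. After thinning to 2000 UMIs the shares were 6.79% and 0.242%. The median of those 512 cells held 1 of the other 43 scored genes, 445 held at most 2, and 9 held 5 or more. Of the 1109 Pou4f3-positive cells without a Nusap1 UMI, the median held 0, 1054 held at most 2, and 3 held 5 or more. Cells with Nusap1 thus held somewhat more of the other scored genes, but they were also deeper. Median depth was 13377 UMIs in cells with Nusap1 and 8452 UMIs in those without. Without the highest-scored doublets the levels were 47.6 CPM in Pou4f3-positive cells and 1.295 CPM in Epcam-positive cells, but that of Otor-high cells was 4.21 CPM. The gene Oip5, which overlaps Nusap1 on the opposite strand, had 3.03 CPM in Pou4f3-positive cells of day 25 against 0.450 CPM in Epcam-positive cells.

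Cdca3 showed such a level on day 5 only. It had 32.2 CPM in Pou4f3-positive cells of day 5 against 1.59 CPM in Epcam-positive cells, 20.2-fold higher (16.1 to 25.2), and 2.64 CPM in Otor-high cells. On day 25 it had 0.505 CPM in Pou4f3-positive cells against 0.665 CPM in Epcam-positive cells. Of the 374 Pou4f3-positive cells of day 5, 85 held a Cdca3 UMI, or 22.7% (18.6 to 27.3), against 123 of 7757 Epcam-positive cells, or 1.59%. Thinned, the shares were 4.95% and 0.362%. Of the 85 cells, 67, or 78.8%, held at most 2 of the other scored genes, against 92.7% of the 289 cells without a Cdca3 UMI. Median depth was 20666 UMIs in cells with Cdca3 and 8347 UMIs in those without. Plk1 and Foxm1 were also higher in Pou4f3-positive than in Epcam-positive cells of day 5, below the level filter. Plk1 had 8.48 CPM in Pou4f3-positive cells of day 5 against 0.748 CPM in Epcam-positive cells, and Foxm1 had 11.2 against 1.23 CPM.

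Cdc20 had the opposite pattern. It had 6.36 CPM in Pou4f3-positive cells of day 5 against 23.6 CPM in Epcam-positive cells, 3.72-fold lower (2.64 to 5.41). On day 25 it had 1.67 CPM in Pou4f3-positive cells against 25.6 CPM in Epcam-positive cells, 15.3-fold lower (10.9 to 22.4). A Cdc20 UMI was found in 1491 of 7757 Epcam-positive cells on day 5, or 19.2%, and in 631 of 3950 on day 25, or 16.0%, against 6.15% and 1.23% of Pou4f3-positive cells. Thinned, the shares were 4.52% and 3.96% of Epcam-positive cells, against 0.929% and 0.381% of Pou4f3-positive cells. Without the highest-scored doublets the Pou4f3-positive levels were 1.92 CPM on day 5 and 0.570 CPM on day 25, and the Epcam-positive levels 23.5 and 25.0 CPM. Of the 1491 and 631 cells, 1344 and 587 held at most 2 other scored genes, or 90.1% and 93.0%. Among Epcam-positive cells without a Cdc20 UMI it was 96.2% on day 5 and 97.5% on day 25. The cells with Cdc20 were deeper, with medians of 18728 and 16148 UMIs against 5862 and 8394 UMIs. Elovl1, the fatty acid elongase gene that overlaps Cdc20 on the opposite strand, had the same order, with 48.9 CPM in Pou4f3-positive cells of day 5 against 234 CPM in Epcam-positive cells, and 12.6 against 105.5 CPM on day 25. The part of Elovl1 reads in the Cdc20 count was not tested.

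**Figure D5:**
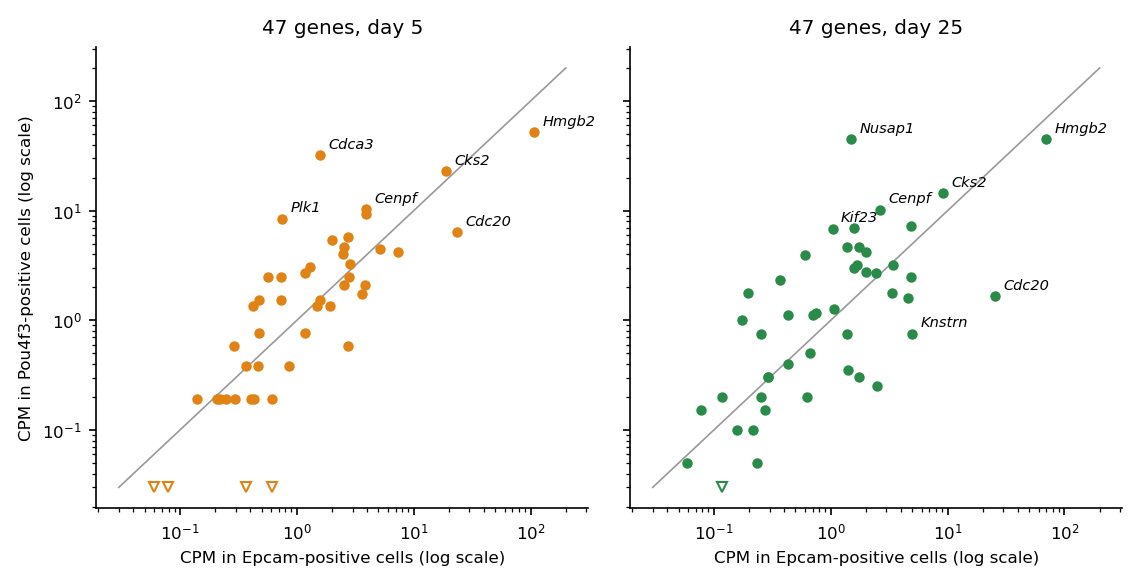
CPM of each of the 47 genes in Pou4f3-positive cells (vertical) against Epcam-positive cells (horizontal) on log axes, on day 5 and on day 25; each point is a gene in 1 library, the line marks equal levels, and open triangles at the lower edge are genes with no UMI in Pou4f3-positive cells. Cdca3 on day 5 and Nusap1 on day 25 lie far above the line and Cdc20 below it on both days.

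Smaller differences of the same kind were seen in Pou4f3-positive cells of day 25 for Kif23, Racgap1, Ect2 and Cenpf. Kif23, the motor of centralspindlin, had 6.87 CPM in Pou4f3-positive cells against 1.04 CPM in Epcam-positive cells, and its partner Racgap1 had 3.94 against 0.606 CPM. Ect2 had 6.97 against 1.59 CPM, and Cenpf had 10.2 against 2.62 CPM. Knstrn, a spindle and kinetochore adaptor, had 0.757 CPM in Pou4f3-positive cells against 4.97 CPM in Epcam-positive cells. These 5 genes were chosen after their values were seen, and none reached 20 CPM in either class.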

How the data were processed

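Single cells were sequenced on the 10x 3′ platform, 1 library per group. The deposited matrices hold raw UMI counts per gene and cell, made by the authors with Cell Ranger. The file headers give its version as 3.0.1 in the earlier libraries (expansion, day 5) and 3.1.0 in the day 25 library. The builds GRCm38 and hg38 are named in the submitters' processing notes, and the annotation release and strand setting are not given in the sources used here. Group, library and, for day 25, software version cannot be told apart. Cells with at least 500 genes and at most 20% mitochondrial UMIs were kept, which left 206041930, 139807302 and 75301271 UMIs in expansion and on days 5 and 25. Counts were summed over cells, scaled to CPM, and called at 2-fold of CPM + 1 where either side reached 20 CPM. With 1 library per group no test across libraries was made. Mitotic profiles used 44 genes after thinning each cell to 2000 UMIs, with 5 genes as the bound. Doublets, scored with simulated pairs, were kept: 4.51%, 4.38% and 2.16% of cells were called, fewer than the 22.4%, 11.1% and 5.01% that cell numbers would give at 0.8% per 1000 cells, so leaving out the highest-scored cells up to those numbers was added after the data were seen. Intervals cover counting error only.

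The members and lists were chosen with earlier results of these data known. Named in each role group were the 2 to 4 genes of highest expansion level, genes whose call differed from their group or that missed the filter, and the 4 highest genes on each later day. In the other lists the 4 genes with the largest difference and any gene past 2-fold the other way were named, and regulators of at least 5 CPM could be. Genes chosen after their values were seen are marked as such in some paragraphs only. Ect2 and Kif11 between the later days were also picked by value. So were Hmmr and Ube2c for their shares in mitotic-profile cells, and Plk1 and Foxm1 in Pou4f3-positive cells. The calling step was tested on simulated data. Alternatives were other scalings, pseudocounts, filters, bounds, class definitions and doublet settings. Work was done in Python 3.11.15 with numpy 2.4.6, scipy 1.17.1, pandas 2.3.3, scikit-learn 1.9.0 and matplotlib 3.10.9, and TMM factors came from edgeR 4.0.16 in R 4.3.3.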

Additional observations from a re-analysis of the deposited data

Results flagged for a closer look

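The direction between day 25 and day 5 was opposite in different classes of cells for 3 quantities, and with 1 library per day none of these differences was tested. Summed over the 47 genes, the ratio of day 25 to day 5 was 1.65 in Otor-high cells (1.53 to 1.77) and 0.757 in Epcam-positive cells (0.738 to 0.776). Without the highest-scored doublets on either day the Otor-high ratio was 0.917 (0.830 to 1.01), with 302 CPM on day 25 against 329 CPM on day 5. For Nusap1 the ratio was 8.37 in Pou4f3-positive cells (5.75 to 12.7) and 0.742 in Epcam-positive cells. For Ube2c it was 2.99 in Otor-high cells (2.19 to 4.01), with 35.5 CPM on day 25 against 11.9 CPM on day 5, and 0.369 in Epcam-positive cells, with 1.41 against 3.82 CPM. All 53 Ube2c UMIs of the Otor-high class on day 25 lay in 3 cells, of which 2 were among the highest doublet scores.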

How the results depend on the processing

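No paired analysis was possible because each group has 1 library, and no replicate could be left out for the same reason. The summed level of day 25 against day 5 turned direction in 3 of 18 settings by class, all chosen after seeing the data. The ratio in Pou4f3-positive cells, 0.922, was 1.018 without Hmgb2, Cks2 and Kpna2 and 1.05 without the highest doublet scores, and that in Otor-high cells, 1.65, was 0.917 without the highest scores. The Otor-high ratio was 2.65 at an Otor bound of 1% and 2.21 without the 3 genes, and the Epcam-positive ratio, 0.757, was 0.736, 0.926 and, without the highest scores, 0.734. The median log2 difference of the 47 genes stayed negative under every setting. Shares were not scored for direction. Without the highest scores the Otor-high share was 0.546% on day 25 against 0.612% on day 5, where all cells gave 1.60% against 0.670%. On day 5 the Pou4f3-positive share, 0.310% against 0.237% in Epcam-positive cells, was then 0% against 0.163%. The median of all genes turned negative under TMM scaling in each comparison. Of 21 counts of genes past 2-fold, 17 stayed within 1.5 times, and those against expansion did so under each alternative run. For day 25 against day 5, where no gene was called, TMM scaling called 2, median of ratios scaling 1, a filter of 1 CPM 6, and leaving out the highest doublet scores, an alternative chosen after seeing the data, 1. TMM moved the split over all genes there to 882 higher and 811 lower, against 1514 and 418, and median of ratios scaling to 984 and 700. Against expansion, the all-gene split under median of ratios scaling was 614 higher to 974 lower on day 5 and 1268 to 1582 on day 25.

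The share of cells with a mitotic profile in expansion, on day 5 and on day 25 was 58.5%, 1.62% and 0.990% without thinning. From 3 genes it was 54.3%, 0.797% and 0.238% (14 cells on day 25), and from 8 genes 21.3% in expansion and 0.357% on day 5. In expansion it was 37.7% without called doublets and 34.9% without the highest scores, which gave 0.0537% on day 25. In Pou4f3-positive cells it was 24.8% from 3 genes, 5.45% from 8, 37.3% without thinning and 4.95% without the highest scores in expansion. It was 3.21% without thinning and 0% without the highest scores on day 5, and 1.79% without thinning, 0.254% from 3 genes (4 cells) and 0% from 8 genes on day 25. In Otor-high cells it was 38.6% from 3 genes, 16.7% from 8 and 40.0% at an Otor bound of 1% in expansion, where only 5 cells of at least 2000 UMIs remained (2 of 5, 5.27 to 85.3), and 1.10% from 3 genes, 1.97% without thinning and 0.338% at that bound on day 5. On day 25 it was 0.546% (1 of 183 cells) without the highest scores and 2.08% (1 of 48) at that bound. In Epcam-positive cells it was 56.1% from 3 genes, 21.9% from 8, 64.2% without thinning, 38.7% without called doublets and 35.2% without the highest scores in expansion. It was 0.404% from 3 genes and 1.37% without thinning on day 5, and 0.684% without thinning and 0% without the highest scores on day 25.

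Summed levels in Pou4f3-positive cells of expansion were 2532 CPM from 1 Pou4f3 UMI, 1954 without called doublets, 1513 without Hmgb2, Cks2 and Kpna2 and 858 without the highest scores. Without those 3 genes they were 122.5 CPM on day 5 and 125 on day 25, and 182 on day 5 without the highest scores. In Otor-high cells an Otor bound of 1% gave 3627 (2912 to 4463), 243 and 642 CPM in expansion and on days 5 and 25, and leaving out the 3 genes gave 2126, 166 and 366. Called doublets left out gave 336 on day 5, and the highest scores left out 302 on day 25. In Epcam-positive cells, leaving out the 3 genes gave 2943, 88.3 and 81.7 CPM at these times. From 2 Epcam UMIs the sum was 3932 in expansion and 214 on day 5, at an Otor bound of 1% 224 on day 5, and without called doublets 3879 in expansion. The highest scores left out gave 3801, 209.9 and 154 CPM. Apart from settings that change the genes or cells counted, the cause was not tested. Genes with few UMIs on the later days, such as Cdc25c, are limited by depth.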
